A study of Mus musculus with 35 samples.

Results

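Dbp, Tef and Hlf encode the 3 PAR bZIP transcription factors, and Nfil3 encodes their antagonist. Their rows were taken by gene symbol from a table of 22211 genes, which held 1 row for each of these 4 genes, and all 4 passed the filter on low values. PAR bZIP proteins carry a region rich in proline and acidic residues beside a basic leucine zipper, and they activate genes through a DNA element called the D-box. NFIL3, also called E4BP4, binds the same element and represses. The circadian clock drives both sides: the activator pair BMAL1 and CLOCK acts on E-boxes of Dbp, which in mouse lie partly in its introns, while the REV-ERB receptors repress Nfil3, so that Dbp and Nfil3 RNA peak at opposite times of day in many tissues. In mouse liver and kidney the PAR bZIP factors are known for driving enzymes of detoxification, and NFIL3 is also needed for the development of natural killer cells in mouse.

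RNA was sequenced from the left lung lobe of 35 male C57BL/6 mice aged 7 to 9 weeks, of which 17 were killed at ZT16 (16 hours after lights on, in the dark phase) and 18 at ZT4 (4 hours after lights on). Mice at ZT16 lived in cabinets with an inverted 12-hour light cycle and mice at ZT4 in the normal facility, and all lobes were taken at the same hour of the morning, so that time of day and housing cannot be told apart. The DT groups held 3 mice at ZT16 and 4 at ZT4, of genotype MRP8-Cre;iDTR-flox, injected with diphtheria toxin (DT) at 10 ng per g body weight, a design in which Cre driven by the myeloid MRP8 promoter makes neutrophils sensitive to the toxin. The anti-Ly6G groups held 7 wild-type mice at each time, injected with the neutrophil-depleting antibody 1A8 at 3 µg per g. The control groups held 7 wild-type mice at each time, injected with control IgG at 3 µg per g. All injections were subcutaneous on 2 consecutive days, and lungs were taken on the next day. Anti-Ly6G and control mice came from a September 2017 batch (4 mice per group) and a July 2017 batch (3 mice per group). All DT mice came from an April 2018 batch with no control mice, so DT, genotype and batch cannot be told apart, and levels of DT mice were not tested against those of the other mice.

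The values are the authors' normalised expression values, with a depth that is not known. They give no scale per gene length that could be checked, so levels are compared between mice and never between genes. Libraries are named by group, batch and column order (for example ZT4_antiLy6G Sep#2). Lung identity and time labels held in the data. The summed level of 10 lung epithelium markers, among them the surfactant genes Sftpc and Sftpb, ranged over 47046 to 64978 in the 35 libraries. Cry1, a clock repressor, ranged over 35.8 to 51.3 in all ZT16 libraries, against 11.2 to 18.4 in all ZT4 libraries. That separates the time labels, but does not show that clock time was alike over batches and treatments. Mature neutrophil markers were measured in every library, with a summed level of 121 to 990, and the highest sum was in the library ZT4_control Sep#2.

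The promoter windows are shown because they hold, or lack, the elements through which the clock is known to act on these genes. Each is the 250 bases before a RefSeq start of GRCm38.p6, written 5′ to 3′ on the strand of the gene, with motif matches in capitals. The motifs searched on both strands were the E-box CACGTG, the related CACGTT, the D-box TTANGTAA and AGGTCA, a half-site bound by REV-ERB receptors.
Dbp, chr7:45704997-45705246, plus strand: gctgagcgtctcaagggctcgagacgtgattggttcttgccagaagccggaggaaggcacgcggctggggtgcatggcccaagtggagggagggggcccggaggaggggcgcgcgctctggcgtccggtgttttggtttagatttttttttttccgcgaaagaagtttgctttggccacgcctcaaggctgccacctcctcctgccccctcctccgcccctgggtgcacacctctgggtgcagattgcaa
Tef, upstream start, chr15:81802423-81802672, plus strand: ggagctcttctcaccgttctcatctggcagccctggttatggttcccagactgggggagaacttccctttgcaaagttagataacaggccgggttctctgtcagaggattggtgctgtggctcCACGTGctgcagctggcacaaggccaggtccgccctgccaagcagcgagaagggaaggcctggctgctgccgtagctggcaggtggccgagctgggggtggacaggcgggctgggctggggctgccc
Tef, downstream start, chr15:81811164-81811413, plus strand: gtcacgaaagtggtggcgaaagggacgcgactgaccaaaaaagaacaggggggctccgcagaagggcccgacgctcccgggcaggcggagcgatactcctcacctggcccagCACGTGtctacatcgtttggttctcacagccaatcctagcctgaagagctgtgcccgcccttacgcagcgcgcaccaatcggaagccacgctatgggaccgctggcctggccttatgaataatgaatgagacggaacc
Nfil3, chr13:52981040-52981289, minus strand: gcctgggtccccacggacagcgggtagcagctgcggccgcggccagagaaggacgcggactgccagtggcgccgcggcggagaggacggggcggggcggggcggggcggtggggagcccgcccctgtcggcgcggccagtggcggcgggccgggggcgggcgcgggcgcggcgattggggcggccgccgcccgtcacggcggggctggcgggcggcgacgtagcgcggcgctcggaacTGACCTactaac
Both Tef windows hold 1 E-box, starting at position -127 and at position -138 from the RefSeq start. Of 32851 promoter windows of the same length, 6.02% hold an E-box. The Nfil3 window holds 1 AGGTCA match on the reverse strand (capitals TGACCT), at position -12, as do 14.0% of all windows. The Dbp and Hlf windows hold none of the 4 motifs, and no window of the 4 genes holds CACGTT (3.85% of all windows) or the D-box (2.06% of all windows). A missing match says only that the letters are not in this window. The RefSeq starts differ from the ends of the genes in the GENCODE annotation, whose positions are given below. By GENCODE both Tef windows lie inside the gene, and the Dbp and Nfil3 windows lie partly inside theirs, with the Nfil3 match in the inside part.

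Dbp, the PAR bZIP gene best known for its large daily swing, was lower at ZT16 than at ZT4 in anti-Ly6G and control lungs, by 3.18-fold and 4.56-fold on the fitted scale, whereas ZT16 and ZT4 lungs of DT mice had like mean levels. Dbp (ENSMUSG00000059824) lies at chr7:45705088-45710203 of GRCm38 on the plus strand. In DT lungs its values were 39.9, 38.3 and 25.4 at ZT16, against 12.4, 35.5, 69.998 and 38.4 at ZT4. All 3 ZT16 values lay inside the range of the ZT4 values. In anti-Ly6G lungs the lowest, median and highest values were 6.67, 17.4 and 32.9 at ZT16, against 19.5, 68.2 and 83.6 at ZT4. The ranges overlapped, and 4 of 7 ZT16 mice lay below every ZT4 mouse. In control lungs the lowest, median and highest values were 9.20, 12.5 and 41.6 at ZT16, against 41.3, 68.9 and 122 at ZT4. The ranges met at a single ZT16 mouse, and the other 6 of 7 ZT16 mice lay below every ZT4 mouse.

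Tests were run with limma over all 16786 genes that passed the filter, on log2(value + 0.5), with p-values adjusted by Benjamini-Hochberg over these genes and called under 0.05. The ZT16 minus ZT4 difference of Dbp was 0.03 ± 0.53 in DT lungs (log2, SE, limma adjusted p = 0.976), with a 95% interval of -1.04 to 1.11. In anti-Ly6G lungs it was -1.67 ± 0.37 (limma adjusted p = 0.0014). In control lungs it was -2.19 ± 0.37 (limma adjusted p = 0.000135), the second largest change in size of the 16786 genes, at rank 141 by limma p. Of all genes, 15.3% were called in DT lungs, 20.9% in anti-Ly6G lungs and 9.04% in control lungs. Bulk lung RNA cannot tell fewer cells of a type from less RNA per cell. Dbp shares 539 exon bases, 18% of its exon bases, with Sphk2 on the opposite strand, and no source used here says whether counting used strand. The ZT16 minus ZT4 difference of Sphk2, a sphingosine kinase gene, was 0.26 in DT, 0.14 in anti-Ly6G and 0.18 in control lungs (log2), opposite in sign to that of Dbp in anti-Ly6G and control lungs. The Sphk2 difference was called in DT lungs (limma adjusted p = 0.0364) and not in anti-Ly6G (0.0983) or control lungs (0.0516). The part of shared reads in the Dbp values was not tested.

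**Figure D1:**
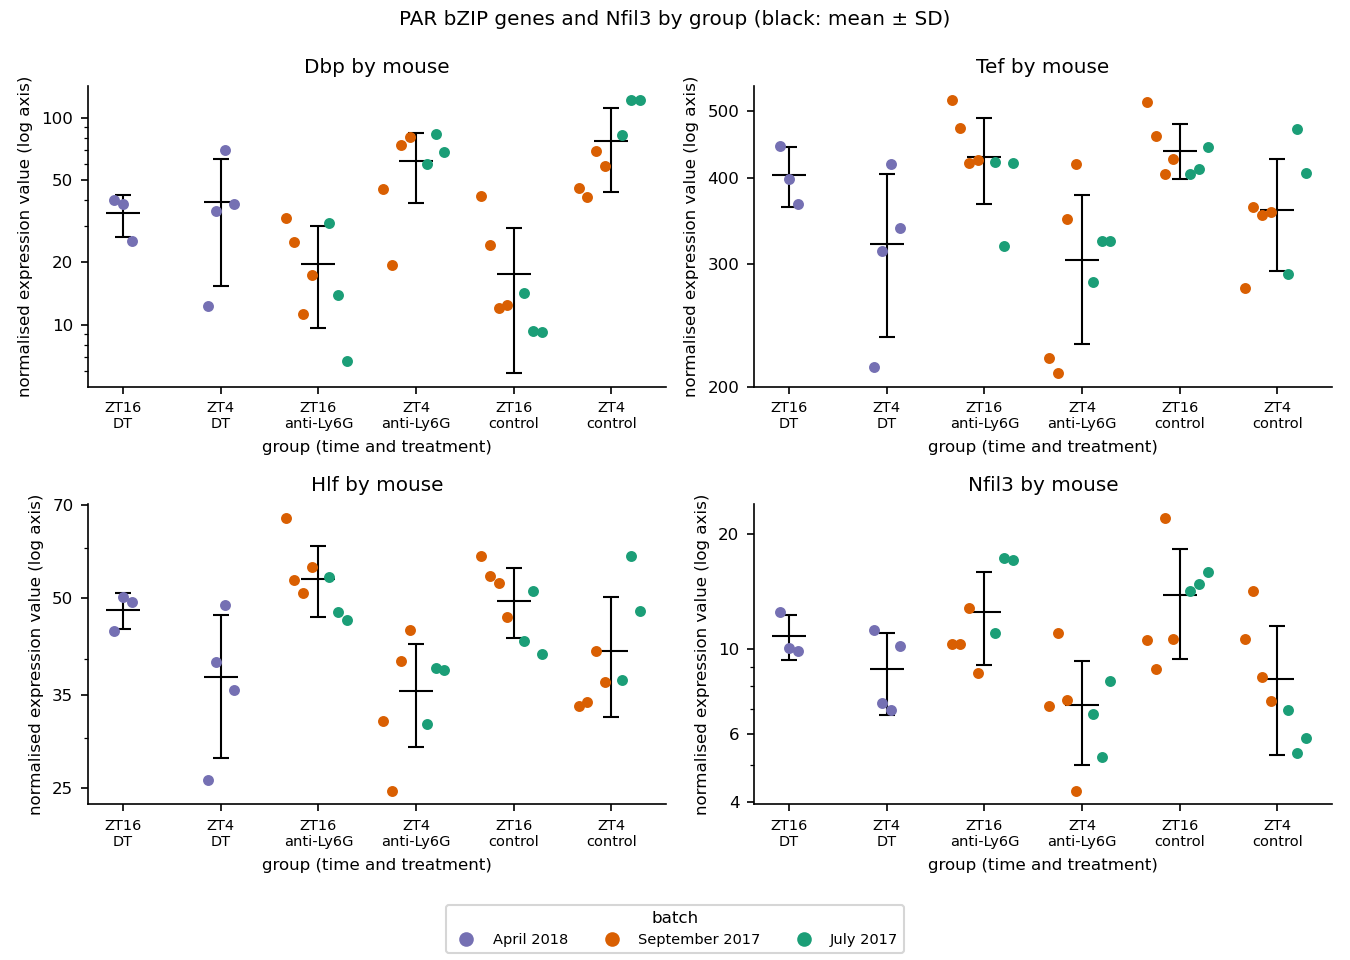
Normalised expression value (log axis) of Dbp, Tef, Hlf and Nfil3 in each mouse, by time and treatment, coloured by batch, with the mean and SD of each group in black. Dbp averaged 17.6 at ZT16 and 77.2 at ZT4 in control lungs, and 34.5 at ZT16 and 39.1 at ZT4 in DT lungs.

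The Dbp difference was read within each batch from a fit with a mean per group and batch. In anti-Ly6G lungs of September, Dbp had 32.9, 25.2, 11.3 and 17.4 at ZT16, against 45.3, 19.5, 73.9 and 80.6 at ZT4, and the difference of -1.23 ± 0.45 (log2, SE) was not called (limma adjusted p = 0.0755). In anti-Ly6G lungs of July it had 31.1, 13.9 and 6.67 at ZT16, against 59.8, 83.6 and 68.2 at ZT4, a called difference of -2.25 ± 0.52. The July groups did not overlap and the September groups did. In control lungs of September Dbp had 41.6, 24.2, 12.1 and 12.5 at ZT16, against 45.9, 41.3, 68.9 and 58.6 at ZT4, and the difference of -1.39 ± 0.45 was not called (limma adjusted p = 0.0783). In control lungs of July it had 14.3, 9.35 and 9.20 at ZT16, against 82.3, 122 and 122 at ZT4, a called difference of -3.26 ± 0.52. The means in July controls thus differed 9.93-fold, without overlap. Over both treatments the September minus July difference of the time change was 1.44 ± 0.48 (log2, limma adjusted p = 0.206), which was not called, with 0.0715% of all genes called in that comparison. Within batches, 9.73% of genes were called in anti-Ly6G lungs of September, 8.33% in anti-Ly6G lungs of July, 3.78% in control lungs of September and 2.95% in control lungs of July.

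Tef (thyrotroph embryonic factor) was higher at ZT16 in anti-Ly6G lungs, opposite to Dbp, and its differences of the same sign in DT and control lungs were not called. Lungs were sampled at ZT4 and ZT16 only, so the sign of a difference gives no peak time or size of a daily swing. Tef (ENSMUSG00000022389) lies at chr15:81802421-81826863 on the plus strand, and 193 of its exon bases (2.45%) are shared with the antisense gene Gm17597. In DT lungs its values were 445, 398 and 366 at ZT16, against 213, 313, 419 and 338 at ZT4. The groups overlapped through 1 high ZT4 mouse. In anti-Ly6G lungs the lowest, median and highest values were 319, 422 and 518 at ZT16, against 209, 324 and 419 at ZT4, and 6 of 7 ZT16 mice lay above every ZT4 mouse. In control lungs they were 405, 425 and 515 at ZT16, against 277, 357 and 471 at ZT4, with 1 ZT16 mouse above every ZT4 mouse. The ZT16 minus ZT4 difference was 0.37 ± 0.19 in DT lungs (log2, SE, limma adjusted p = 0.198), 0.52 ± 0.13 in anti-Ly6G lungs (adjusted p = 0.00563) and 0.30 ± 0.13 in control lungs (adjusted p = 0.166). By batch, the September groups did not overlap in anti-Ly6G lungs (421 to 518 at ZT16, against 209 to 419 at ZT4) or in control lungs (405 to 515 at ZT16, against 277 to 363 at ZT4). The September difference was 0.67 ± 0.18 in anti-Ly6G lungs, which was called, and 0.42 ± 0.18 in control lungs, which was not. The July differences of 0.31 ± 0.20 in anti-Ly6G lungs and 0.14 ± 0.20 in control lungs were not called.

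Hlf (hepatic leukemia factor) was 1.51-fold higher at ZT16 in anti-Ly6G lungs, where the times did not overlap, and its changes were not called in DT or control lungs. Hlf (ENSMUSG00000003949) lies at chr11:90336536-90390895 on the minus strand. In DT lungs its values were 44.2, 50.02 and 49.1 at ZT16, against 25.7, 39.6, 48.7 and 35.7 at ZT4. The ZT4 mouse at 48.7 lay among the ZT16 mice, and the other 3 ZT4 mice lay below them. In anti-Ly6G lungs the lowest, median and highest values were 46.2, 53.3 and 66.9 at ZT16, against 24.7, 38.4 and 44.4 at ZT4, so that every ZT16 mouse lay above every ZT4 mouse. In control lungs they were 40.7, 51.2 and 58.1 at ZT16, against 33.7, 37.0 and 58.1 at ZT4, and both ranges ended at 58.1. The ZT16 minus ZT4 difference was 0.38 ± 0.18 in DT lungs (log2, SE, limma adjusted p = 0.144), 0.59 ± 0.13 in anti-Ly6G lungs (adjusted p = 0.00084) and 0.28 ± 0.13 in control lungs (adjusted p = 0.170). In September the difference was called in anti-Ly6G lungs (0.71 ± 0.15) and in control lungs (0.53 ± 0.15, limma adjusted p = 0.0451), and in both the times did not overlap. Without any 1 of 6 of the 8 September control libraries the control call was lost, with a difference of 0.49 to 0.59 over the 8 fits. In July the difference was 0.44 ± 0.18 in anti-Ly6G lungs and -0.07 ± 0.18 in control lungs, neither of them called.

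Nfil3, the repressor of the group, was higher at ZT16 in anti-Ly6G and control lungs, by 1.71-fold and 1.63-fold. Nfil3 (ENSMUSG00000056749) lies at chr13:52967209-52981073 on the minus strand. In DT lungs its values were 12.5, 10.0 and 9.92 at ZT16, against 11.2, 7.22, 6.93 and 10.2 at ZT4. The times overlapped, with 1 ZT16 mouse above every ZT4 mouse. In anti-Ly6G lungs the lowest, median and highest values were 8.67, 11.03 and 17.3 at ZT16, against 4.27, 7.12 and 10.99 at ZT4. In control lungs they were 8.90, 14.2 and 22.04 at ZT16, against 5.36, 7.32 and 14.2 at ZT4. In each of these treatments 4 of 7 ZT16 mice lay above every ZT4 mouse. The ZT16 minus ZT4 difference was 0.29 ± 0.29 in DT lungs (log2, SE, limma adjusted p = 0.530), 0.77 ± 0.20 in anti-Ly6G lungs (adjusted p = 0.00556) and 0.70 ± 0.20 in control lungs (adjusted p = 0.0223). The control call was lost without ZT16_control Sep#3 (0.58), without ZT4_control Jul#2 (0.61) or without ZT4_control Jul#3 (0.63).

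The Nfil3 difference between times was called in July and not in September. In July, anti-Ly6G lungs had 11.03, 17.3 and 17.1 at ZT16, against 6.76, 5.22 and 8.26 at ZT4 (1.10 ± 0.27, called). July control lungs had 14.2, 14.8 and 15.9 at ZT16, against 6.92, 5.36 and 5.86 at ZT4 (1.24 ± 0.27, called). The July groups did not overlap in either treatment. In September the difference was 0.53 ± 0.24 in anti-Ly6G lungs and 0.30 ± 0.24 in control lungs, and both treatments overlapped between times. The July call in anti-Ly6G lungs was lost without ZT4_antiLy6G Jul#2 (0.94) or ZT16_antiLy6G Jul#2 (0.99). The September minus July difference of the time change was -0.76 ± 0.26 (log2, limma adjusted p = 0.206), which was not called, and those of Tef (0.32) and Hlf (0.43) were not called either.

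**Figure D2:**
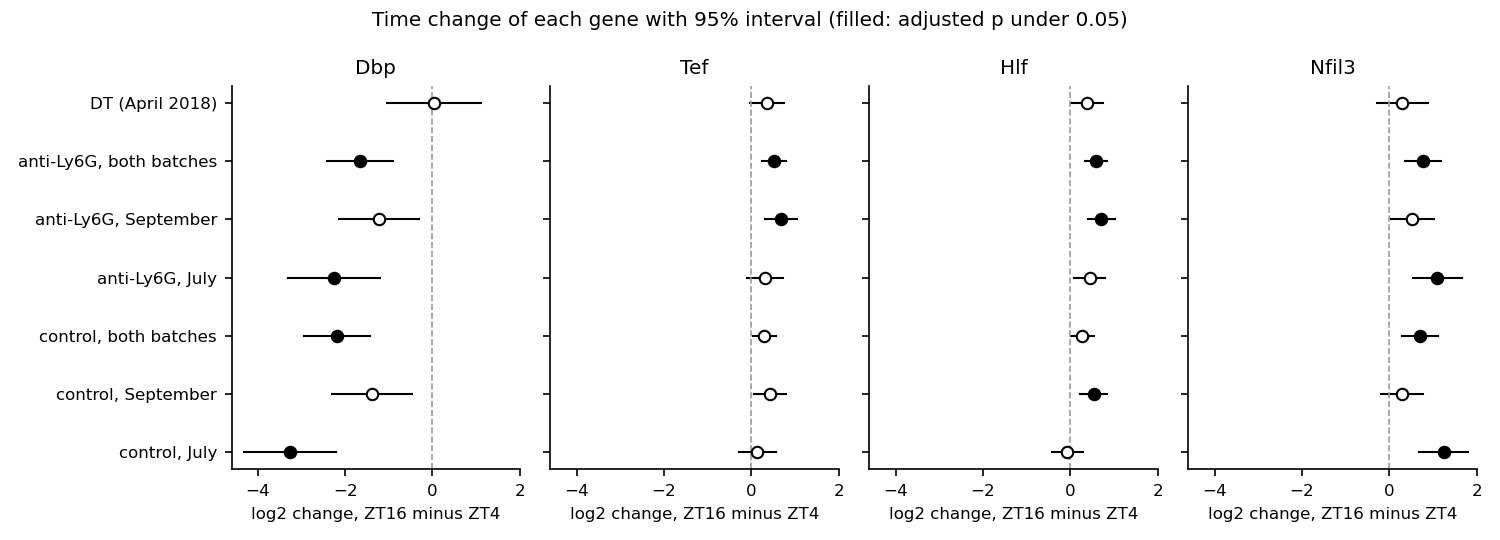
Fitted ZT16 minus ZT4 change (log2) of each gene with its 95% interval, in DT lungs and in anti-Ly6G and control lungs over both batches and within each; filled points have an adjusted p under 0.05. Dbp lies at -3.26 in July controls and at 0.03 in DT lungs, and Nfil3 is filled in July and open in September.

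The antibody comparisons ask whether these genes, or their time change, differed between mice given anti-Ly6G and mice given control IgG. The summed level of 14 mature neutrophil markers ranged over 123 to 214 in anti-Ly6G and 121 to 227 in control lungs at ZT16, and these ranges lay almost wholly over each other. At ZT4 it ranged over 124 to 237 in anti-Ly6G and 184 to 990 in control lungs, with overlap. Of the 13 markers tested 0 were called at either time, with a median anti-Ly6G minus control difference of -0.30 at ZT16 and -0.76 at ZT4 (log2). These values do not establish that neutrophils were depleted in these lungs, so the comparisons below are of the injected antibodies. In DT lungs the sum ranged over 176 to 313 at ZT16 and 144 to 155 at ZT4. None of the 4 genes was called, and the share of all genes called was 0% at ZT16, at ZT4 and for the difference of the time changes (1185 genes at ZT4, 701 at ZT16 and 1007 for the difference had an unadjusted limma p under 0.05). At ZT16 the anti-Ly6G minus control difference was 0.18 for Dbp, -0.04 for Tef, 0.11 for Hlf and -0.13 for Nfil3 (log2). At ZT4 it was -0.34 for Dbp (95% interval -1.09 to 0.42), -0.26 for Tef (-0.53 to 0.01), -0.20 for Hlf (-0.46 to 0.05) and -0.20 for Nfil3 (-0.61 to 0.21). The exact permutation test of mice within batch, two-sided, gave p-values of 0.154 or more for these 8 differences. These intervals leave room for a change of Dbp at ZT4 in either direction.

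The time change of Dbp in DT lungs differed from that in control lungs by 2.22 ± 0.65 (log2, limma adjusted p = 0.0207), and 13.8% of all genes were called in that comparison. This call was lost without ZT4_DT Apr#1 (1.76, adjusted p = 0.0803), ZT16_DT Apr#1 (2.10, adjusted p = 0.0584) or ZT16_DT Apr#2 (2.13, adjusted p = 0.0551) by the same limma test. Against anti-Ly6G lungs the Dbp difference was 1.70 ± 0.65 (limma adjusted p = 0.0604), which was not called, where 19.1% of all genes were. For Tef, Hlf and Nfil3 neither difference was called. Their DT minus control values were 0.07 for Tef (95% interval -0.41 to 0.54), 0.11 for Hlf (-0.34 to 0.55) and -0.41 for Nfil3 (-1.12 to 0.30). The mouse ZT4_DT Apr#1 had the lowest Dbp, Tef and Hlf values of the 4 ZT4 DT mice (12.4, 213 and 25.7) and the highest Nfil3 value (11.2).

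Dbp and Nfil3 were set against each other in each mouse as log2 Dbp minus log2 Nfil3, a value compared between mice only. It leaves out Tef and Hlf, whose mean levels were higher at ZT16 in every treatment. It thus gives no balance of the activators with the repressor. In DT lungs it averaged 1.61 ± 0.28 at ZT16 and 1.87 ± 1.29 at ZT4 (SD, n = 3 and 4). In anti-Ly6G lungs it averaged 0.50 ± 1.10 at ZT16 and 2.94 ± 1.08 at ZT4 (SD, n = 7 each), and in control lungs 0.19 ± 1.09 at ZT16 and 3.08 ± 1.06 at ZT4. The ranges overlapped in every treatment: at ZT16 they reached up to 1.88 in DT, 1.63 in anti-Ly6G and 1.93 in control lungs, and at ZT4 down to 0.14 in DT, 0.80 in anti-Ly6G and 1.51 in control lungs.

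Ordered by mean level, Dbp was highest in ZT4 control lungs (77.2 ± 33.4, SD), followed by ZT4 anti-Ly6G (61.6), ZT4 DT (39.1), ZT16 DT (34.5), ZT16 anti-Ly6G (19.8) and ZT16 control lungs (17.6 ± 11.7). Tef ran in the other direction, from ZT16 control (438), ZT16 anti-Ly6G (428) and ZT16 DT (403) to ZT4 control (360), ZT4 DT (321) and ZT4 anti-Ly6G lungs (304). Hlf was highest in ZT16 anti-Ly6G lungs (53.5), followed by ZT16 control (49.4), ZT16 DT (47.8), ZT4 control (41.2), ZT4 DT (37.4) and ZT4 anti-Ly6G lungs (35.6). Nfil3 was highest in ZT16 control lungs (13.9), followed by ZT16 anti-Ly6G (12.5), ZT16 DT (10.8), ZT4 DT (8.88), ZT4 control (8.38) and ZT4 anti-Ly6G lungs (7.14). All 3 ZT16 groups thus stood above all 3 ZT4 groups for Tef, Hlf and Nfil3, and below them for Dbp. Of the 20 pairs of neighbours in these orders, 1 had a gap between means over the larger SD (Dbp in ZT16 DT over ZT16 anti-Ly6G lungs), and the ranges of all 20 overlapped. That gap was not tested, and DT, genotype and the batch of the DT mice cannot be told apart in it.

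Mice of the same group and batch differed in these genes more than they did in most genes of like level. The SD between such mice was 0.71 for Dbp, 0.28 for Tef, 0.24 for Hlf and 0.36 for Nfil3 (log2, 25 residual degrees of freedom). Against the 1000 genes of nearest mean level, these SDs stood at percentile 99.8 for Dbp, 97.0 for Tef, 95.8 for Hlf and 96.0 for Nfil3. Among all 16786 genes they stood at percentile 98.8 for Dbp, 74.1 for Tef, 67.3 for Hlf and 88.3 for Nfil3. The spread was shared among the genes. In ZT4_antiLy6G Sep#2, for example, Dbp, Tef and Hlf lay 1.28, 0.45 and 0.47 below the mean of its group and batch on the log2 scale, and Nfil3 lay 0.60 above it.

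Over the 35 mice, deviations from the mean of group and batch were correlated in all 6 pairs of the 4 genes, with a two-sided permutation test within group and batch (100000 resamples, adjusted over the 6 pairs). By Pearson r Tef and Hlf came first, with r = 0.82 (rho = 0.67, adjusted permutation p = 0.00036). By rank, Dbp and Hlf and then Dbp and Tef came before them. Dbp and Hlf had r = 0.77 (rho = 0.72, adjusted permutation p = 0.00036). Dbp and Tef had r = 0.71 (rho = 0.70, adjusted permutation p = 0.00082). Nfil3 deviated in the opposite direction, with r = -0.65 against Dbp (rho = -0.61, adjusted permutation p = 0.00137), -0.58 against Hlf (rho = -0.60, adjusted permutation p = 0.00137) and -0.51 against Tef (rho = -0.40, adjusted permutation p = 0.0101). Without the 2 mice farthest from the median of the first gene, r was 0.76 for Tef and Hlf, 0.66 for Dbp and Hlf, 0.59 for Dbp and Tef, -0.58 for Dbp and Nfil3, -0.48 for Hlf and Nfil3 and -0.38 for Tef and Nfil3. The values of a mouse come from 1 library and share its normalisation.

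The same pairs were taken within each time, as 12 correlations adjusted together. In the 17 mice at ZT16 no pair passed (r = 0.33 for Tef and Hlf, 0.58 for Dbp and Hlf, 0.54 for Dbp and Tef, -0.54 for Dbp and Nfil3), with a lowest adjusted permutation p of 0.0536. In the 18 mice at ZT4 all 6 passed (r = 0.92 for Tef and Hlf, 0.93 for Dbp and Hlf, 0.86 for Dbp and Tef, -0.75 for Dbp and Nfil3), with a highest adjusted permutation p of 0.0361 for Tef and Nfil3. By rank, that last pair did not pass at ZT4 (rho = -0.49, adjusted permutation p = 0.106). Whether the correlations differ between the times was not tested.

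**Figure D3:**
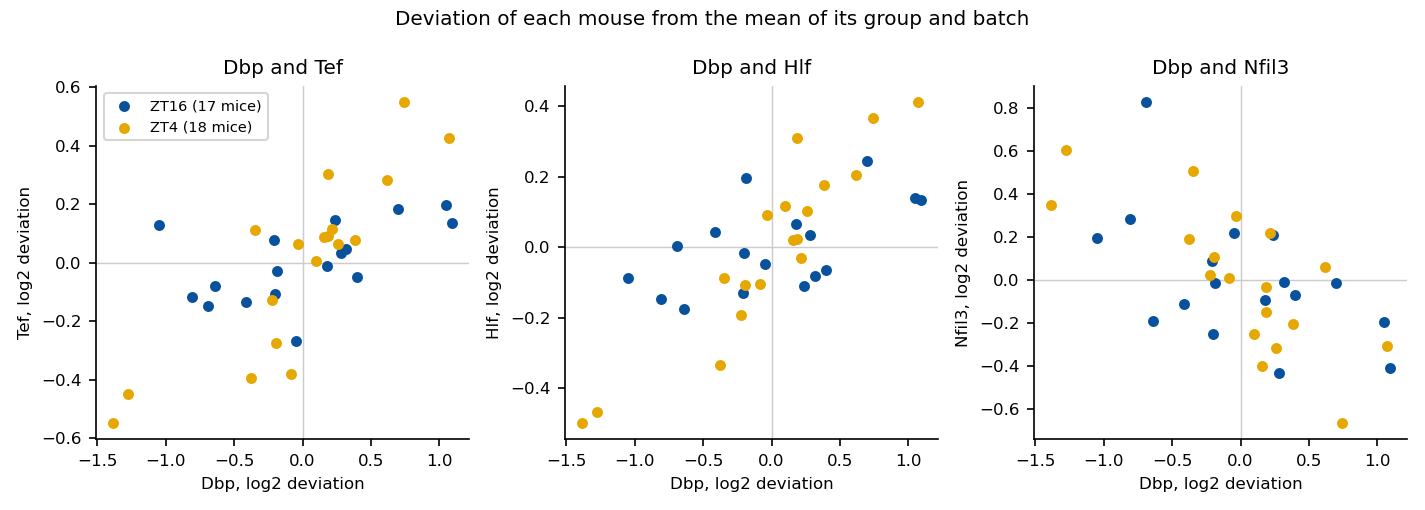
Deviation of each mouse from the mean of its group and batch (log2) in Dbp on the x axis against Tef, Hlf and Nfil3 on the y axes, with ZT16 mice in blue and ZT4 mice in yellow. Across the 35 mice Tef (r = 0.71) and Hlf (r = 0.77) deviate with Dbp, and Nfil3 deviates against it (r = -0.65).

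The deviations were then set against those of 22 clock genes, as 88 pairs adjusted together. Dbp deviated with Nr1d1 (r = 0.89) and Nr1d2 (0.84), which encode the REV-ERB repressors, with the period gene Per3 (0.88) and with Bhlhe41, a repressor at E-boxes (0.80). It deviated against Npas2 (-0.84), Arntl (-0.81) and Clock (-0.79), which encode the E-box activators NPAS2, BMAL1 and CLOCK. These were its 7 pairs with an adjusted permutation p under 0.05, each at 0.000518 or below. Permutation p-values under 0.0001 were set to 0.0001 before adjustment, so 0.000518 is an upper limit. Tef had 8 positive and 2 negative pairs that passed, led by Per3 (0.90), and Hlf had 7 positive and 3 negative, led by Per3 (0.92). Nfil3 had 2 positive pairs that passed, Npas2 (0.62) and Arntl (0.51), and 3 negative, Bhlhe41 (-0.63), Per3 (-0.60) and Nr1d2 (-0.50). These signs are opposite to those of Dbp, but the Nfil3 pairs with Nr1d1 and Clock did not pass. Cry1, which separates the times in every library, did not pass with any of the 4 genes.

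**Figure D4:**
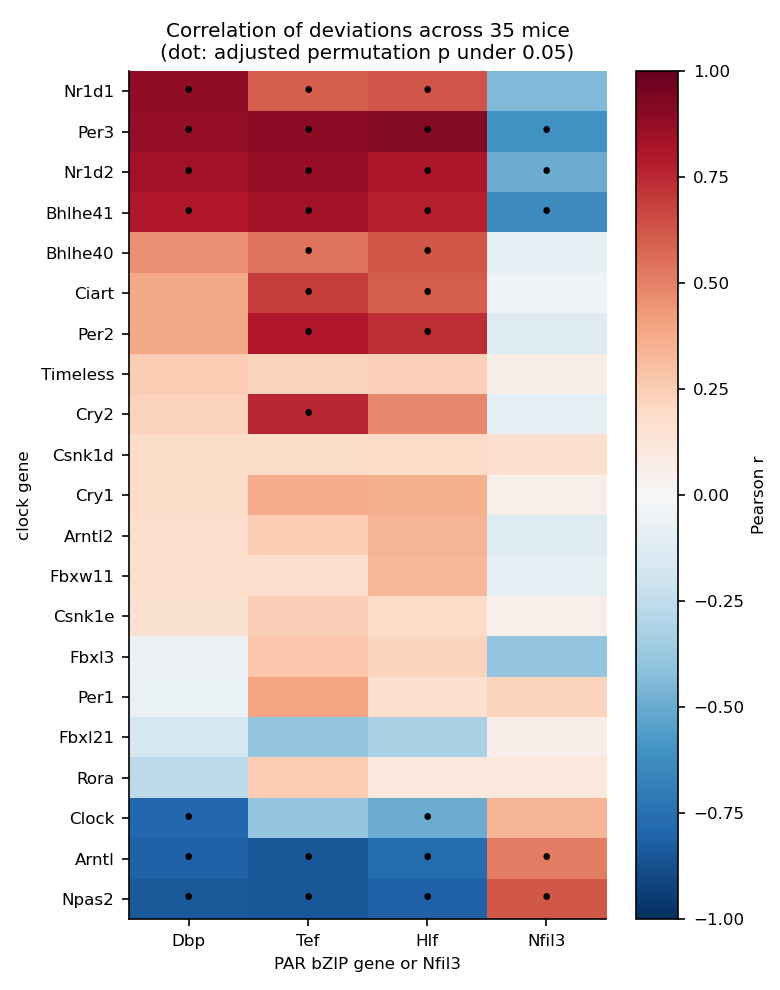
Pearson correlation over 35 mice between the deviations of 21 of the 22 clock genes (rows) and of Dbp, Tef, Hlf and Nfil3 (columns); dots mark an adjusted permutation p under 0.05. Nr1d1, Per3, Nr1d2 and Bhlhe41 lead the positive end for Dbp, and Npas2, Arntl and Clock the negative end.

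Likeness over the levels of the 35 libraries, including the group differences, is given as a description (Pearson r on the log2 scale). The genes most like Dbp were Nr1d1 (0.93), Zfp346 (0.87), Nr1d2 (0.87), Anxa7 (0.87) and Bri3 (0.81). Those most like Tef were Per3 (0.93), Hlf (0.89), Gpr155 (0.88), Per2 (0.86) and Tspan4 (0.85). Those most like Hlf were Per3 (0.95), Gpr155 (0.89), Tef (0.89), Tspan4 (0.86) and Per2 (0.86), so that Tef and Hlf share 4 names. Those most like Nfil3 were Rhou (0.86), Plod1 (0.80), Slc25a38 (0.79), Ctsh (0.79) and Ifitm2 (0.78), and the lowest were Zfp346 (-0.83), Dbp (-0.83) and Arhgap1 (-0.79). At the lowest end stood Rasl11a (-0.81), Gsta3 (-0.78) and Gcdh (-0.77) for Dbp, Gramd4 (-0.82), Neurl3 (-0.82) and Wwp2 (-0.80) for Tef, and Cerk (-0.79), Ank3 (-0.78) and Slc26a9 (-0.78) for Hlf.

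The clock genes upstream of these factors changed in time as follows. Of 21 core clock genes tested, 3 rose and 0 fell at ZT16 in DT lungs, 7 rose and 2 fell in anti-Ly6G lungs, and 5 rose and 2 fell in control lungs. Over all genes tested, 5.3% rose and 9.98% fell in DT lungs, 10.6% rose and 10.4% fell in anti-Ly6G lungs, and 4.65% rose and 4.38% fell in control lungs. Nr1d1, which encodes the repressor of Nfil3, averaged 95.7 at ZT16 and 135 at ZT4 in DT lungs, where its change of -0.51 ± 0.44 was not called (limma adjusted p = 0.473). In anti-Ly6G lungs it averaged 33.3 at ZT16 and 272 at ZT4, and in control lungs 30.9 at ZT16 and 309 at ZT4, and it fell by 3.098 in anti-Ly6G lungs and fell by 3.396 in control lungs on the log2 scale. The genes of the E-box activators showed 0 of 4 calls in each treatment over both batches: the control change was -0.21 for Arntl, 0.10 for Clock and -0.02 for Npas2 (log2). These values average batches of opposite sign. In control lungs the change of Arntl was -0.96 in September and 0.80 in July, and that of Npas2 was -0.82 in September and 1.05 in July, with 0 of these 4 values called. In anti-Ly6G lungs Arntl fell in September (-1.02, limma adjusted p = 0.0265) and had 0.12 in July. The September minus July difference of the time change was -1.45 for Arntl (limma adjusted p = 0.0671) and -1.53 for Npas2 (adjusted p = 0.0993), and was not called. Of 8 E-box repressors, 2 rose in DT lungs (Cry1 and Per2), 4 rose in anti-Ly6G lungs, and 3 rose and 1 fell in control lungs.

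The clock genes known to carry D-boxes, on which both PAR bZIP factors and NFIL3 can act, had 6 tested members. In DT lungs 1 rose and 0 fell (5.3% and 9.98% of all genes), in anti-Ly6G lungs 3 rose and 1 fell (10.6% and 10.4% of all genes), and in control lungs 2 rose and 1 fell (4.65% and 4.38% of all genes). Per2 was the gene that rose in DT lungs (1.04), and it rose in anti-Ly6G (1.77) and control lungs (1.29, log2). Per3 rose in anti-Ly6G lungs (0.64), and its values of 0.56 in DT and 0.47 in control lungs were not called. Of 4 other bZIP genes of the C/EBP family, Ddit3, a stress-induced factor, rose in anti-Ly6G lungs (0.34), and there were no other calls, against the same shares of all genes.

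Genes described as outputs of the PAR bZIP factors, mostly in mouse liver, were called higher at ZT16 more often than lower. Of 18 listed genes 12 were in the table and 10 passed the filter on low values; Cyp7a1 and Cyp2a4 were in the table below it. At ZT16, 3 rose and 1 fell in DT lungs, 6 rose and 0 fell in anti-Ly6G lungs, and 4 rose and 0 fell in control lungs. Of all genes tested, 5.3% rose and 9.98% fell in DT, 10.6% rose and 10.4% fell in anti-Ly6G, and 4.65% rose and 4.38% fell in control lungs. Their median change was 0.23 in DT, 0.35 in anti-Ly6G and 0.30 in control lungs (log2), against -0.01, -0.02 and -0.002 over all genes in the same order of treatments. Pdxk, which encodes the kinase that makes active vitamin B6, averaged 56.8 ± 7.02 at ZT16 and 44.4 ± 2.96 at ZT4 in DT lungs (SD, n = 3 and 4). In control lungs it averaged 64.9 ± 4.14 at ZT16 and 44.9 ± 3.80 at ZT4 (SD, n = 7 each), and its lowest ZT16 value of 60.2 lay above its highest ZT4 value of 50.1. Pdxk rose by 0.35 in DT, 0.72 in anti-Ly6G and 0.53 in control lungs (log2).

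Gstt1, a glutathione transferase gene, rose in every treatment, by 0.31 in DT, 0.31 in anti-Ly6G and 0.29 in control lungs (log2). Cyp2b10, a cytochrome P450 gene of drug metabolism, rose in anti-Ly6G (0.64) and control lungs (0.56), and its DT value of 0.21 was not called. Cyp2a5, a cytochrome P450 gene that metabolises coumarin, rose in DT (0.80), anti-Ly6G (0.99) and control lungs (0.63). Both P450 genes have near-identical copies with which reads may be shared, so their values are uncertain. Alas1, which encodes the first enzyme of heme synthesis, rose in anti-Ly6G lungs (0.39), as did the fatty acid receptor gene Ppara (0.49). Neither was called in DT (0.26 and -0.15) or control lungs (0.16 and 0.31). Por, which encodes the electron donor of the P450 enzymes, fell in DT lungs (-0.24), and its values of 0.07 in anti-Ly6G and -0.11 in control lungs were not called. The time change in DT minus that in anti-Ly6G lungs was called for Por (-0.32) and Pdxk (-0.38), where 19.1% of all genes were called. The time change in DT minus that in control lungs was called for none of the 10, where 13.8% of all genes were called.

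**Figure D5:**
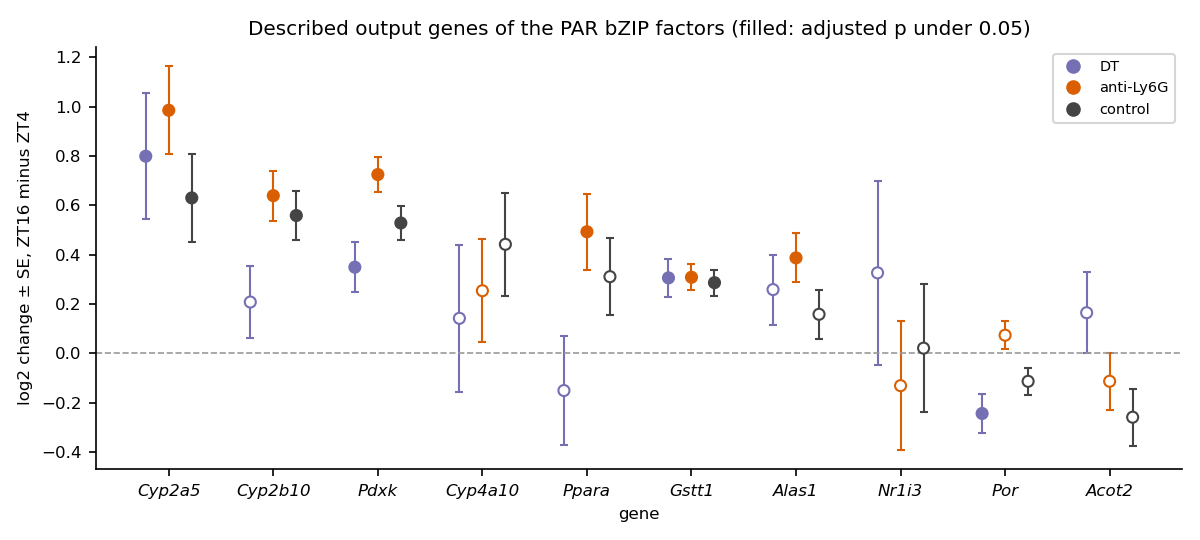
ZT16 minus ZT4 change (log2, with SE) of 10 genes described as PAR bZIP outputs, for DT, anti-Ly6G and control lungs; filled points have an adjusted p under 0.05. Cyp2a5, Pdxk and Gstt1 are filled and above 0 in all 3 treatments, and Por is filled and below 0 in DT lungs.

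Markers of the cell types in the lobe were read beside the share of all genes that rose or fell at ZT16, which was 5.3% and 9.98% in DT lungs, 10.6% and 10.4% in anti-Ly6G lungs, and 4.65% and 4.38% in control lungs. Of 15 natural killer markers, 1 fell in DT, 7 in anti-Ly6G and 6 in control lungs, and the summed level ranged over 29.9 to 49.7 at ZT16 and 50.2 to 70.4 at ZT4 in control lungs. Of 10 B cell markers 1 fell in DT, 7 in anti-Ly6G and 2 in control lungs, and of 10 T cell markers 0, 6 and 3 fell in the same order of treatments. In DT lungs these 3 lists thus had shares at or near that of all genes, or below it. Of 10 lung endothelium markers 6 fell and 0 rose in DT lungs, 3 rose (Tek, Car4 and Vwf) and 1 fell (Egfl7) in anti-Ly6G lungs, and 1 rose (Tek) and 1 fell (Egfl7) in control lungs. Their sums ran over 3396 to 3826 at ZT16 and 4536 to 5709 at ZT4 in DT lungs, and over 3724 to 4466 at ZT16 and 3609 to 4574 at ZT4 in control lungs. Of 13 mature neutrophil markers tested, 1 rose in DT, 0 were called in anti-Ly6G and 2 fell in control lungs, with sums of 121 to 227 at ZT16 and 184 to 990 at ZT4 in controls. Of 10 lung epithelium markers, 1 rose and 2 fell in DT lungs, 2 rose (Sftpa1 and Sftpb) and 2 fell (Abca3 and Lamp3) in anti-Ly6G lungs, and 1 fell (Abca3) in control lungs. Of 10 heart muscle markers 0 were called in any treatment. The part of these cell types in the time changes of Dbp, Tef, Hlf and Nfil3 was not tested. Without ZT4_control Sep#2, the control library with the neutrophil sum of 990, the control differences were -2.32 for Dbp, 0.30 for Tef, 0.23 for Hlf and 0.84 for Nfil3, with Dbp and Nfil3 called.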

How the data were processed

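Lung polyA RNA was amplified with an Ovation Single Cell kit (NuGen) before library preparation, per the labels' protocols. The submitters' processing notes list, without roles, kallisto 0.43.1, RSEM 1.2.20, cutadapt, CASAVA 1.8.2 and GRCm38. The authors deposited 1 normalised signal value per gene and library, in 35 libraries. No value was 0 (minimum 0.00638) or a whole number, and library sums ran over 962649 to 1033550. How these values were normalised, and whether batches were adjusted, is not stated, and read depth is unknown, so no counting interval is given. The SD over genes of the September minus July difference, divided by its SE, was 0.516, where batches that differ only by chance give about 1. Whether an earlier batch adjustment makes the standard errors too small was not tested.

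A gene was kept if 3 or more libraries reached a value of 1, which left 16786 genes and removed 5425. The fit was limma 3.58.1 (trend) in R 4.3.3 on log2(value + 0.5), over all 6 groups together, with 1 coefficient for batch (September or July) and 28 residual degrees of freedom. Within-batch values came from a separate mean for each group in each batch (25 residual degrees of freedom). P-values are two-sided and Benjamini-Hochberg adjusted over the genes kept, with a threshold of 0.05, and changes on this scale understate those of low values. There were 13 comparisons. Correlations and exact permutations used numpy 2.4.6 and scipy 1.17.1. The fitting code was tested on simulated data. The series' design text gives 3 or 4 mice to a group, and libraries were treated as separate mice; if any were not, p-values measure technical spread. Table columns matched a group and batch but no single labelled sample, so column numbers pair nothing. Gene positions are from the GENCODE annotation of GRCm38, and promoter windows from RefSeq (GRCm38.p6). The 4 genes and all gene lists were chosen with earlier results of these data known, so the lists give no independent support. Named genes were the 4 genes in every comparison, up to 5 called genes of smallest p per list, genes with overlapping exons, and per gene the 5 highest and 3 lowest correlations over libraries among genes of at least median level. Other list genes were named after their values were seen. The correlations within each time and with clock genes were added after the data were seen. The values of 1 clock gene are not reported here, though it stays in the counts.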

Additional observations from a re-analysis of the deposited data

Results flagged for a closer look

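The Tef value of 277 in ZT4_control Sep#1 stood far below the other 3 ZT4 control mice of September, which had 363, 354 and 357. In the same mouse Dbp (45.9) and Nfil3 (10.6) lay within the range of the other 3 mice, and Hlf (33.7) lay below their lowest value of 34.1. The Nfil3 value of 22 in ZT16_control Sep#3 stood far above the other 3 ZT16 control mice of September, which had 10.6, 8.90 and 10.6. Without that mouse the Nfil3 time change in control lungs was 0.58 and no longer called. Far samples of this kind were looked for in 36 sets of 4 or 7 mice and found in 2 (5.56%), where chance gives about 1 in 20. The time change of Dbp differed between DT and control lungs by 2.22 (log2, limma adjusted p = 0.0207), a call lost without ZT4_DT Apr#1, ZT16_DT Apr#1 or ZT16_DT Apr#2. DT, genotype and the April 2018 batch cannot be told apart in it.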

How the results depend on the processing

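Of 1292 values of the 4 genes under other settings, 1237 kept their direction and side of the threshold, 25 lost a call, 11 gained one and 19 changed sign. No value changed in this way with a pseudocount of 0.1 or 1, a filter on a mean of 5, no batch term or libraries rescaled to 1 median. Dropping the batch term could not move the estimates, because each anti-Ly6G and control group held 4 September and 3 July mice. The September Hlf change in control lungs (0.53) lost its call with no filter and with a robust fit. With cyclic loess the Tef time change in DT minus anti-Ly6G lungs was 0.0165, opposite in sign. With array weights the DT change of Dbp (-0.25) and the DT minus control time change of Tef (-0.0644) changed sign, the September change of Dbp in anti-Ly6G lungs (-1.36) gained a call, and 22 genes in place of 12 were called for September minus July. Fitted on the libraries of the comparison alone, the September changes of Dbp (-1.39) and Tef (0.42) in control lungs gained a call, with 318 genes called there and 442 in July anti-Ly6G lungs. In July alone the control change of Hlf was -0.0659, opposite in sign, and those of Tef (0.31) and Hlf (0.44) in anti-Ly6G lungs lost their call, with 798 genes called in anti-Ly6G and 309 in control lungs. In September alone the changes of Dbp (-1.23) and Nfil3 (0.53) in anti-Ly6G lungs and of Dbp (-1.39) and Nfil3 (0.30) in control lungs lost their call and that of Hlf in control lungs (0.53) gained one, with 1467 genes called in anti-Ly6G and 482 in control lungs. By exact permutation within batch the control change of Tef (0.30) had an unadjusted two-sided p of 0.0229, counted above as a gained call. This gain sets an unadjusted p against a threshold meant for adjusted p-values, and the unadjusted limma p was 0.0329. In ZT16 mice alone no pair passed (r = 0.54 for Dbp and Tef, 0.58 for Dbp and Hlf, -0.54 for Dbp and Nfil3, 0.33 for Tef and Hlf, -0.31 for Tef and Nfil3, -0.29 for Hlf and Nfil3). The cause of these shifts was not tested.

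Leaving out single mice, the Dbp time change ranged over -0.43 to 0.39 in DT lungs, over -1.66 to -0.96 in anti-Ly6G lungs of September (called only without ZT4_antiLy6G Sep#2) and over -1.74 to -1.15 in control lungs of September (called only without ZT16_control Sep#1). Its DT minus anti-Ly6G difference ranged over 1.24 to 2.06, called only without ZT4_antiLy6G Sep#2, ZT16_antiLy6G Sep#1, ZT16_antiLy6G Jul#1 or ZT4_DT Apr#3, and its DT minus control difference over 1.76 to 2.58 (call lost without ZT4_DT Apr#1, ZT16_DT Apr#1 or ZT16_DT Apr#2). The Tef change ranged over 0.52 to 0.86 in anti-Ly6G lungs of September (call lost without ZT4_antiLy6G Sep#1, ZT4_antiLy6G Sep#2 or ZT16_antiLy6G Sep#1) and over -0.0600 to 0.29 in control lungs of July. The Tef DT minus control difference ranged over -0.12 to 0.21, and its anti-Ly6G minus control difference at ZT16 over -0.0899 to 0.0299. The Hlf change ranged over 0.49 to 0.59 in control lungs of September and over -0.23 to 0.0893 in those of July, and its DT minus control difference over -0.0581 to 0.25. The Nfil3 change ranged over 0.94 to 1.31 in anti-Ly6G lungs of July and over 0.58 to 0.84 in control lungs, and its anti-Ly6G minus control time change over -0.0661 to 0.19. Without ZT4_DT Apr#1, ZT16_DT Apr#1 or ZT16_DT Apr#2, 1190 to 1559 genes in place of 2565 were called in DT lungs and 1161 to 1488 in place of 2314 for DT minus control, and without ZT4_DT Apr#1 2121 in place of 3202 for DT minus anti-Ly6G. Within batches the count fell to as few as 776 in anti-Ly6G lungs of September, 603 in those of July, 309 in control lungs of September and 218 in those of July, and the count for September minus July ran over 4 to 209. No paired analysis was possible because the column numbers of the table do not match the numbers of the labels.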
